A study of Mus musculus with 12 samples.

Results

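Imprinted genes are genes of which mainly 1 parental copy is transcribed. The 38 genes described here were listed by name, as the better known imprinted genes of the mouse, and each was located in GENCODE mouse release M21. All 38 were found, among 55413 annotated genes on chromosomes 1 to 19, X and Y, and they fell into 16 clusters or single loci. Each was listed by the parental copy expressed, 21 as paternal and 16 as maternal, while Gnas uses either copy depending on the promoter. These labels were given by gene and not by tissue. Which copy was used in the tissue studied here was not measured. A gene was counted as having a peak when a peak touched its body or came within 3 kb of one of its start sites.

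The peaks came from chromatin immunoprecipitation followed by sequencing (ChIP-seq) of MOF (KAT8), an enzyme that puts acetyl groups on histone H4, in visceral white adipose tissue. The C57BL/6 mice were 8 weeks old, ate a standard diet, and were either wild type (Mof+/+) or carried 1 intact copy of the gene (Mof+/-). There were 12 libraries, with 2 per genotype for each of MOF, histone H3 and input DNA, but the values analysed were 1 peak list per genotype, without replicate values. No difference between the genotypes could therefore be set against the spread between animals, and no test was made. The chromatin was that of whole tissue, so cell types could not be separated, and the lists do not tell the maternal from the paternal copy. Fewer cells of a type and less MOF per cell cannot be told apart in such material. The Mof+/- mice carry the deletion in every cell, and their controls were littermates.

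In an imprinted cluster, a control region that is methylated on 1 parental copy directs which genes are silent, often through a long noncoding RNA transcribed from the unmethylated copy. The zinc finger protein ZFP57 and its partner TRIM28 keep that methylation, and the short sequence TGCCGC is the core that ZFP57 reads when its CpG is methylated. Several imprinted genes act in fat tissue: DLK1 holds back the differentiation of adipocytes, MEST is associated with the growth of fat cells, and GNAS carries hormone signals that stimulate lipolysis.

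The Mof+/+ list held 17 peaks at imprinted genes, of which 3 reached a pair of listed genes. Of these 3, only that of Igf2r and Airn passed the weakest −log10 p of the other list, 4.72, since those of Zrsr1 with Commd1 and Kcnq1 with Kcnq1ot1 had 4.70 and 3.55, and 0 passed a q-value of 0.001. Sequence is shown for 2 of the shared peaks, since that of Zrsr1 and Commd1 had no suitable stretch outside annotated UTR, and for the peaks with the most TGCCGC, all on the plus strand of GRCm38.p6 as given by RefSeq, with any TGCCGC or its reverse complement GCGGCA in capitals. The choice of the last 4 stretches below was made after their values were seen. The 200 bases before the Igf2r start lay in the peak that Igf2r and Airn share. They held 27 CpG and no TGCCGC.
Igf2r/Airn, chr17:12769665-12769864: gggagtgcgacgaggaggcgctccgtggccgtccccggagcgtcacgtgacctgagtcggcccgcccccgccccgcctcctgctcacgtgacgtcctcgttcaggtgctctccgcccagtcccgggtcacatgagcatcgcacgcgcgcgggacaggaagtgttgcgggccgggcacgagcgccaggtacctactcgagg
The 300 bases around the summit of the peak shared by Kcnq1 and Kcnq1ot1 held 13 CpG and no TGCCGC.
Kcnq1/Kcnq1ot1, chr7:143296121-143296420: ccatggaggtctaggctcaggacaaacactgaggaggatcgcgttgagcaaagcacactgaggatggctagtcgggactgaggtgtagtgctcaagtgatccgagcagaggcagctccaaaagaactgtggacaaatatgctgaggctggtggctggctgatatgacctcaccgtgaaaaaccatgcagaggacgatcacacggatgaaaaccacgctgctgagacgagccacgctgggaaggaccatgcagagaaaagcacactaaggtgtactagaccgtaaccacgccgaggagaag
Plagl1 and Mest are shown because their peaks had the most TGCCGC near the summit and over the whole peak, respectively. The stretch at Plagl1 held 17 CpG and 2 copies, one on each strand, and that at Mest held 14 CpG and 1 copy.
Plagl1, chr10:13091115-13091414: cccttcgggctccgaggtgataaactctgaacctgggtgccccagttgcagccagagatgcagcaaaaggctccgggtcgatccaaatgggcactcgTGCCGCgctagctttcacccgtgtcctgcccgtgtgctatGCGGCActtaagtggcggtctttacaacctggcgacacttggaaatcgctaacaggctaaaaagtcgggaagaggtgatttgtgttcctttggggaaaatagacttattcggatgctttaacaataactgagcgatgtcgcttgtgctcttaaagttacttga
Mest, chr6:30738582-30738881: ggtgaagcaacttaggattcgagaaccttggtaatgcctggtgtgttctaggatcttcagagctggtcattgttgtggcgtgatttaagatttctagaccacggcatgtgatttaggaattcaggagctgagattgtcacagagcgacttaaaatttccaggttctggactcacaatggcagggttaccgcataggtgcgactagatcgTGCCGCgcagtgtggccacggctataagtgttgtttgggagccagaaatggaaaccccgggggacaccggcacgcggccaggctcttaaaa
For contrast, 2 stretches between divergent imprinted starts without a peak are shown whole. The 146 bases between the starts of Peg3 and Usp29 held 5 CpG, and the 98 bases between those of Sgce and Peg10 held 13 CpG and 1 TGCCGC. These stretches are shorter than the start windows used below. Within 500 bp of their most CpG-rich starts, Peg3 and Usp29 had 48 and 47 CpG, with 3 and 2 TGCCGC. Sgce and Peg10 had 62 and 74 CpG there, with 1 TGCCGC each.
Peg3/Usp29, chr7:6730432-6730577: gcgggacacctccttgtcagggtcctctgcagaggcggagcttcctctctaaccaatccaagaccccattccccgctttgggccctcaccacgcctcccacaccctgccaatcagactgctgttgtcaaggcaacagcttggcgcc
Sgce/Peg10, chr6:4747208-4747305: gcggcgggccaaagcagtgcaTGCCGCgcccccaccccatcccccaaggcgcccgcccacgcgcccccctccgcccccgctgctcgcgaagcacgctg

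In Mof+/+ tissue, 14 of the 38 imprinted genes had a MOF peak (36.8%, 95% Wilson interval 23.4 to 52.7), against 24.3% of all annotated genes and 44.5% of protein-coding genes by the same rule. Of the 30 protein-coding members 12 had one (40%, 24.6 to 57.7), near the share of protein-coding genes at large. Of the 8 others, Airn and Kcnq1ot1 had one. With peaks limited to q-values up to 0.001, 7 members had a peak (18.4%, 9.22 to 33.4), against 18.4% of all genes and 34.2% of protein-coding genes, and 9 of the 17 member peaks were left (52.9%) against 52.4% of all Mof+/+ peaks. Within 3 kb of a start site 12 members had a peak (31.6%, 19.1 to 47.5), against 23.2% of all genes. Within 1 kb, 11 had one (28.9%, 17.0 to 44.8), against 20.9% of all genes, and 10 of the 30 protein-coding members did, against 41% of protein-coding genes. The intervals treat genes as independent and cover counting error only, while members of a cluster share peaks. Members listed as paternal had a peak in 7 of 21 (33.3%, 17.2 to 54.6) and those listed as maternal in 6 of 16 (37.5%, 18.5 to 61.4), and these intervals overlapped widely.

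In Mof+/- tissue, 0 of the 38 had a peak, a count under which a share of up to 7.89% remains possible. The same rule called 1.2% of all genes and 1.89% of protein-coding genes, and within 1 kb of a start 0.805% and 1.32% had a peak, so that 0 of 38 is near the background of this short list. The Mof+/- peak nearest to any imprinted start lay 320 kb away, at Copg2, a subunit of the coat of Golgi vesicles. The median distance from a member to a Mof+/- peak was 3688 kb and the farthest, from Zim1, was 9705 kb. In the plot of distances, the Mof+/+ values leave a gap between 1.7 kb (Igf2) and 15.4 kb (Mcts2), and the Mof+/- values all lie far to the right.

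**Figure D1:**
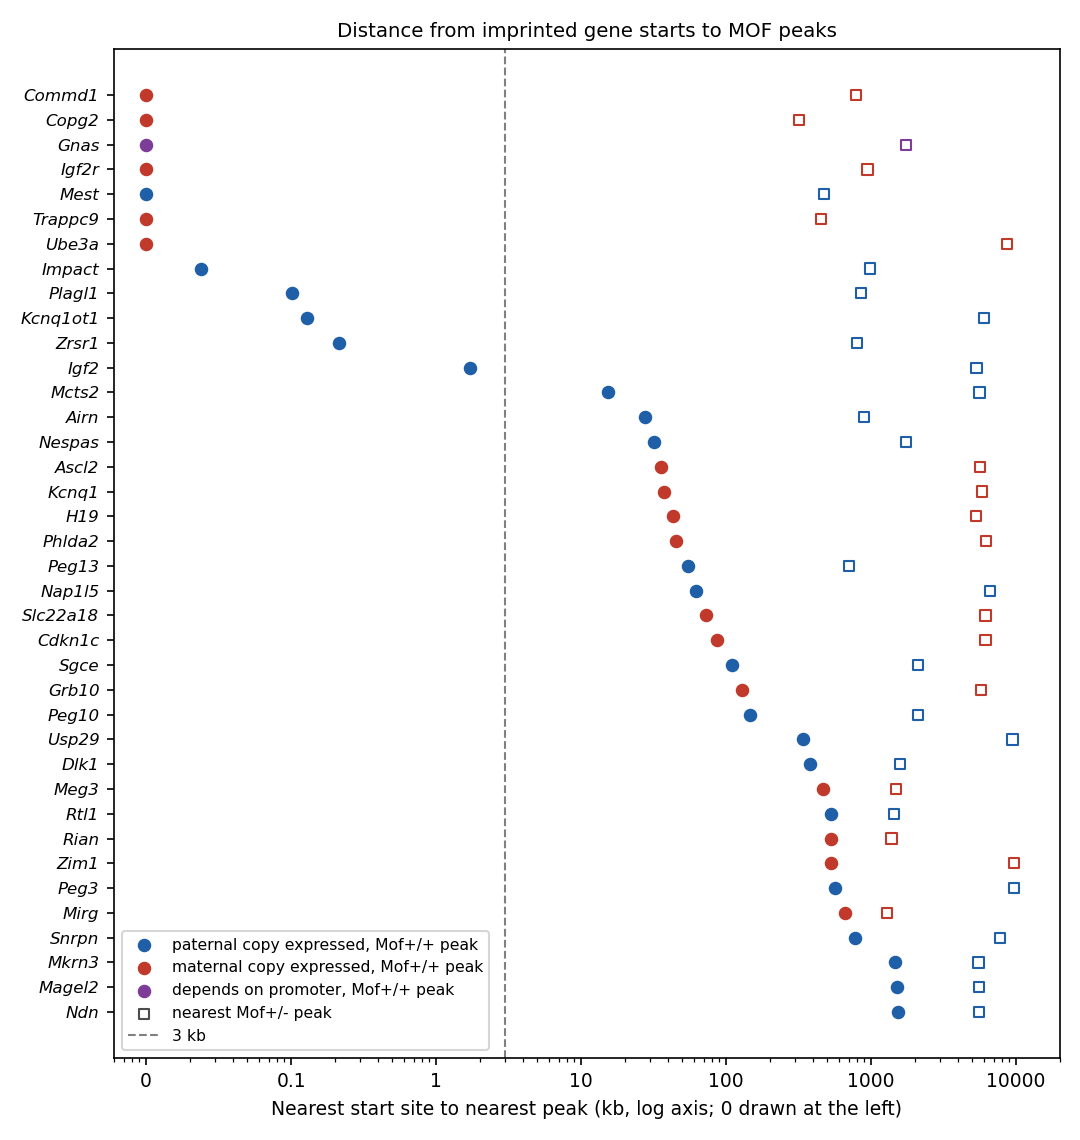
Distance in kb (log axis, with 0 drawn at the left) from the nearest start site of each of the 38 imprinted genes to the nearest Mof+/+ peak (filled points) and Mof+/- peak (open squares), coloured by the parental copy expressed. Filled points of 12 genes sit within the dashed line at 3 kb, and all open squares sit at 320 kb or beyond.

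The clusters differed in how many peaks they held. Peaks were present at members of 10 clusters and absent from the whole span of the other 6, which were those of Peg3, Dlk1 with Meg3, Grb10, Nap1l5, Peg10 and Mcts2. Of the 17 peaks, 9 lay over a start site of a member, 13 within 1 kb and 15 within 3 kb, while 2 lay only in the body of Trappc9. Of these peaks, 13 had 2 or more transcripts of listed genes starting within 3 kb, and 11 also reached a gene outside the list.

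In strength the 17 peaks were close to the Mof+/+ list at large. Their fold enrichment at the summit, a ratio to input, ran from 2.34 to 5.31 with a median of 3.54 (interval of the median 3.10 to 4.25), and the median of all 19753 Mof+/+ peaks was 3.40 (quartiles 2.90 to 4.17). Summits held 12 to 23 fragments with a median of 16, the same median as the whole list. Their widths ran from 308 to 2294 bp with a median of 664 bp, against 609 bp overall. Each fragment number was solved from the deposited fold enrichment and p-value, and even the strongest summit, with 23 fragments, had an exact 95% Poisson interval of 14.6 to 34.5.

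**Figure D2:**
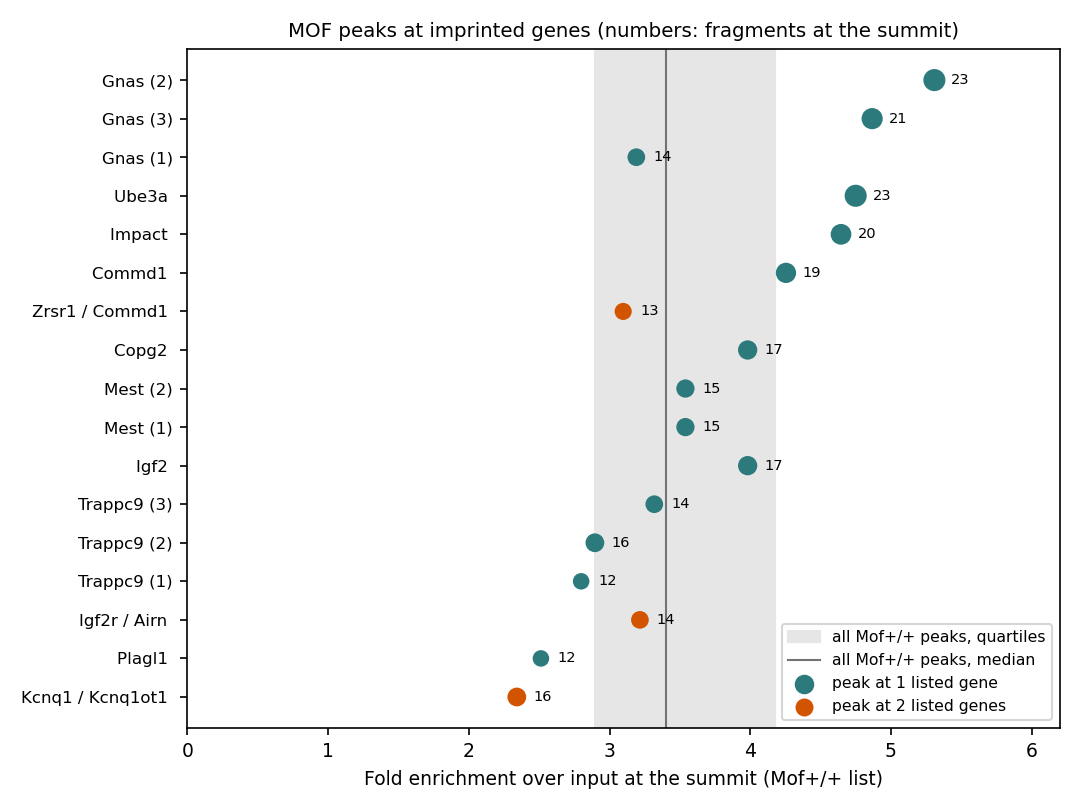
Fold enrichment over input at the summit of each of the 17 Mof+/+ peaks at imprinted genes, grouped by cluster, with point size and number giving the fragments at the summit; repeated names are numbered along the chromosome. The grey band and line give the quartiles and median of all Mof+/+ peaks, and 5 peaks, at Gnas, Ube3a, Impact and Commd1, lie to the right of the band.

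Gnas, which encodes the stimulatory G protein alpha subunit, had the most signal, with 3 peaks side by side. They lay at chr2:174327373-174328000, chr2:174328653-174329377 and chr2:174329709-174332002, with fold enrichments of 3.19, 5.31 and 4.87 from 14, 23 and 21 fragments. The middle one was the strongest peak of all 17, above 92.4% of Mof+/+ peaks. The first covered the starts of 5 Gnas transcripts and the last those of 4, and 10 of the 24 annotated transcripts started within 3 kb of each peak. All 3 summits lay 43.2 to 45.8 kb downstream of the outermost Gnas start, and the upstream starts had no peak. Nespas, the antisense RNA of this cluster, had no peak and its start was 31.9 kb from the nearest one.

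Mest and Copg2 lie side by side and are listed with opposite parental copies. Mest, an enzyme of the hydrolase fold, had peaks at chr6:30736425-30736732 and chr6:30737963-30738920, each with a fold enrichment of 3.54 and 15 fragments. The second covered the starts of 3 Mest transcripts, held 8 copies of TGCCGC, and had its summit 15.2 kb downstream of the outermost Mest start. Copg2 had a peak at chr6:30896133-30897027 with a fold enrichment of 3.98 from 17 fragments, and all 8 Copg2 transcripts started inside it.

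The peak shared by Igf2r and Airn lay at chr17:12769120-12769864, with a fold enrichment of 3.22 from 14 fragments. It covered the start of the full-length transcript of Igf2r, the receptor that clears IGF2. The peak lay in an intron of Airn, the antisense RNA that silences Igf2r, and the nearest Airn start was 27.7 kb away. No peak lay at the Airn start itself.

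At the Kcnq1 cluster the shared peak lay at chr7:143295775-143296420 inside an intron of Kcnq1, which encodes a potassium channel, and over the first part of Kcnq1ot1, the antisense RNA that silences the cluster. It lay 129 bp downstream of the Kcnq1ot1 start and was 37.4 kb from the nearest Kcnq1 start. It was the weakest of the 17 by fold enrichment, 2.34, above 0.694% of all Mof+/+ peaks, with 16 fragments at the summit over an input background of 6.26, the highest background of the 17. Its −log10 q was 1.18. Cdkn1c, an inhibitor of the cell cycle, Phlda2, a growth-restraining protein of the placenta, Slc22a18, a transporter, and Ascl2, a transcription factor of the trophoblast, had no peak, and their starts were 35.7 to 87.2 kb from one. The span of the cluster held 10 peaks, and the listed genes accounted for 1 of them. The neighbouring imprinted genes Tspan32, Cd81 and Tssc4, which are not members, were reached by 6, 2 and 1.

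Zrsr1, a retrogene related to a splicing factor, sits in an intron of Commd1, which is known for its part in copper balance. Their shared peak lay at chr11:22972475-22973002, with a fold enrichment of 3.10 from 13 fragments. It covered the start of a Commd1 transcript annotated as processed, without a coding sequence, and lay 213 bp from the nearest Zrsr1 start. Commd1 had its own promoter peak at chr11:22981759-22982472, of 4.25 from 19 fragments, which covered the starts of 3 transcripts. The peak shared by Zrsr1 and Commd1 was thus the 1 of the 3 near starts of both genes, whereas those of Igf2r with Airn and of Kcnq1 with Kcnq1ot1 lay at the start of 1 gene and in the body of the other.

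**Figure D3:**
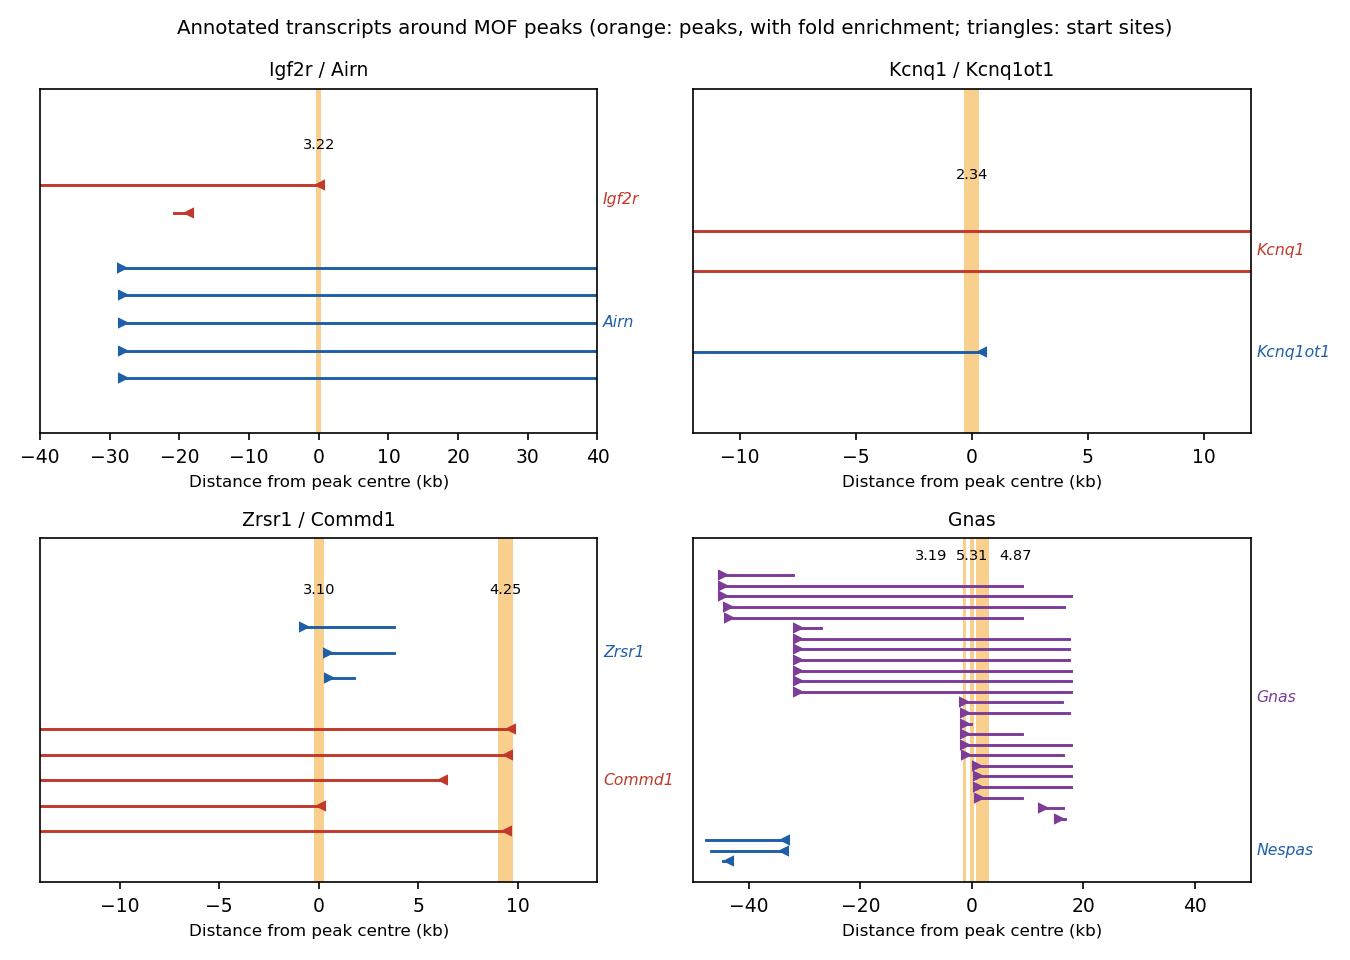
Annotated transcripts of listed genes (lines, with triangles at their starts pointing in the direction of transcription) around 3 shared peaks and the Gnas peaks, by distance in kb from the centre of the peak; blue is paternally expressed, red maternally expressed and purple Gnas, and orange bands are Mof+/+ peaks with their fold enrichment. The Airn starts lie 27.7 kb from the peak at the Igf2r start, and the 3 Gnas bands sit at the downstream starts.

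Single promoters with a peak were those of Ube3a, Plagl1, Impact and Trappc9. Ube3a, a ubiquitin ligase, had a peak at chr7:59228078-59229571 with a fold enrichment of 4.75 from 23 fragments, inside which 11 of its 18 transcripts started. Plagl1, a zinc finger protein that restrains growth, had one of 2.51 from 12 fragments at chr10:13091115-13091520. That peak had a −log10 p of 3.39 and a −log10 q of 1.12, both the lowest of the 17. It lay 102 bp from the nearest start and 30.7 kb downstream of the outermost one, and 22 of the 25 Plagl1 transcripts started within 3 kb, the most for any of the 17 peaks. Impact, which restrains a stress kinase of translation, had one of 4.65 from 20 fragments at chr18:12972296-12973041. It was 24 bp from the nearest Impact start, and its summit lay 17.0 kb downstream of the outermost Impact start.

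Trappc9, a subunit of a vesicle tethering complex, had 3 peaks. That at chr15:73060691-73061281, of 3.32 from 14 fragments, covered the starts of 6 of its 7 transcripts. The other two, of 2.80 and 2.90, were intronic, with no member start within 3 kb. Peg13, the noncoding RNA inside Trappc9, had no peak, and its start was 54.9 kb from one.

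Igf2, a fetal growth factor, had a peak at chr7:142663592-142664059 of 3.98 from 17 fragments. It lay 1722 bp upstream of the nearest Igf2 start, in introns of the longer Igf2 transcript and of the antisense gene Igf2os. Within 150 bp of its summit there were 0.332 CpG per 100 bp, against a median of 7.64 over the member summits. H19, the noncoding RNA of the same cluster, had no peak, and its start was 43.2 kb from one.

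The 24 members without a peak were not close to one. Their starts lay 15.4 kb (Mcts2) to 1540 kb (Ndn) from the nearest Mof+/+ peak, with a median of 241.6 kb, and 0 lay within 10 kb while 15 lay beyond 100 kb. The rule itself leaves out starts within 3 kb, and these distances were not compared with those of other genes without a peak. In the Snrpn cluster, 1 peak, that of Ube3a, fell in a span of 3.20 Mb, or 0.313 per Mb against 7.25 per Mb over all chromosomes. Of the 266 annotated genes in this span 7 were protein-coding, and the part of gene content in the low rate was not tested. Snrpn, a splicing protein, had its start 775.5 kb from a peak, and the single-exon genes Ndn, Magel2 and Mkrn3 had theirs 1466 to 1540 kb away.

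The other clusters without peaks can be given briefly. Dlk1, the inhibitor of adipocyte differentiation, had its start 378.5 kb from a peak, and its neighbours Meg3, Rian, Mirg and Rtl1, noncoding RNAs and a gene derived from a retrotransposon, lay 466.7 to 655.5 kb from one. The zinc finger gene Peg3, the deubiquitinase gene Usp29 and Zim1 lay 337.4 to 566.8 kb away. Peg10, another gene derived from a retrotransposon, lay 145.7 kb away, Sgce, a sarcoglycan gene, 110.4 kb, and Grb10, an adaptor that restrains insulin signalling, 129.0 kb. Mcts2 and Nap1l5 are retrogenes in introns of H13 and Herc3. The hosts had a promoter peak, with a strongest fold enrichment of 3.76 at each, and the retrogene starts lay 15.4 and 61.9 kb from a peak.

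CpG density set the members with a start peak apart only in part. A start was called CpG-rich when the window of 500 bp on each side held at least 50% G+C and at least 0.6 of the CpG that its base composition predicts, using the most CpG-rich start of each gene. Of the 24 members with such a start 10 had a peak within 3 kb (41.7%, 24.5 to 61.2), while 67.7% of all genes with a CpG-rich start did. Among protein-coding genes this was 10 of 23 members against 68.9%. Of the 14 members without a CpG-rich start, Kcnq1ot1 and Trappc9 had a peak within 3 kb (14.3%, 4.01 to 39.9), against 9.17% of all genes of that kind. Members with a start peak had a median of 7.44 CpG per 100 bp (3.20 to 13.4) and those without 4.75 (0.599 to 14.9), so the ranges overlapped, and the median of all genes was 1.5. Grb10, at 14.9, had the highest density of the 38 and no peak. This split was chosen after the peaks of these genes were known. DNA methylation and expression of these genes were not analysed here, and their part in the lower share was not tested.

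**Figure D4:**
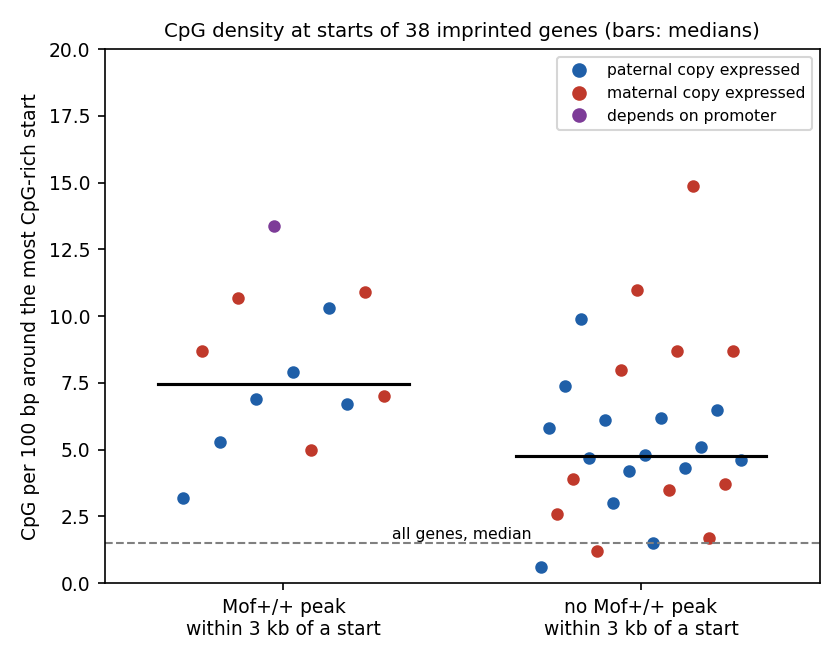
CpG per 100 bp in the 500 bp on each side of the most CpG-rich start of each imprinted gene, for the 12 genes with and the 26 without a Mof+/+ peak within 3 kb of a start, coloured by the parental copy expressed, with bars at the medians. The medians are 7.44 and 4.75 and the ranges overlap.

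The rule takes peaks in genes or near starts, so summits were compared both with the whole list and with Mof+/+ peaks near a start. The median over the 17 was 7.64 CpG per 100 bp within 150 bp of the summit, against 2.33 over all Mof+/+ peaks (quartiles 0.997 to 6.98), and the median G+C was 60.5% against 53.2%. For the 15 member peaks within 3 kb of a member start the median was 7.97, against 4.65 (quartiles 1.66 to 9.30) over the 13253 Mof+/+ peaks within 3 kb of any start, and the G+C 60.8% against 57.5%. Both member medians near starts thus lay inside the quartiles of start-proximal peaks. Sites of the enzyme CviKI-1, which cut the chromatin before sonication at RGCY, were about as dense, at 22.1 and 21.2 per kb. TGCCGC lay within 150 bp of the summit, on either strand, at 7 of the 17 peaks (41.2%, 21.6 to 64.0) and at 13.7% of all Mof+/+ peaks. Near starts these were 6 of 15 peaks (19.8 to 64.3%) and 2390 of 13253. This comparison near starts was added after the values were seen. The Plagl1 summit had 4 copies, of which 2 lay inside the peak, and each Gnas summit, the second Mest summit, the Commd1 promoter and an intron of Trappc9 had 1. Overlapping copies on the 2 strands were counted separately. The motif contains a CpG and the member summits were rich in CpG, and the motif and the base composition cannot be told apart here. Within 500 bp of the most CpG-rich start, 22 of the 38 members had TGCCGC (57.9%, 42.2 to 72.1), against 23.1% of all genes, and Mest had 10 copies. CpG-rich starts were found at 24 of the 38 members and at 13303 of 55413 genes, and no share matched for CpG was computed. A match gives the letters only and does not show that a protein bound.

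Of the 17 Mof+/+ peaks 0 overlapped a Mof+/- peak, so a share of up to 17.6% remains possible, against 2.44% of all Mof+/+ peaks and 1.61% of those within the range of fold enrichment of the members. The nearest Mof+/- peak lay 319.8 kb from a member peak and the farthest 8698 kb. The Mof+/- list had a lowest input background of 2.26 fragments against 3.52 and a weakest −log10 p of 4.72 against 3.25. Read counts were not examined, so these values do not measure depth directly. When fragments and background of each Mof+/+ summit were scaled by the ratio of these backgrounds, 0.642, 5 of the 17 peaks still passed the p-value cutoff that the Mof+/- list shows. These were the 2 downstream Gnas peaks and those of Ube3a, Impact and the Commd1 promoter. Of all Mof+/+ peaks 30.1% passed in this way, and 5.72% of those overlapped a Mof+/- peak. An absence from the Mof+/- list was thus usual among peaks that passed, and less MOF, a difference in depth and the spread between animals cannot be told apart for any of the 17. This scaling was chosen after the values were seen.

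Other lists of genes placed these counts in context. Of 37 further imprinted genes 36 were found, and 15 had a Mof+/+ peak (41.7%) and 0 a Mof+/- peak, where the same rule called 24.3% of all genes and 44.5% of protein-coding genes in the Mof+/+ list and 1.2% and 1.89% in the Mof+/- list. Besides Tspan32, Cd81 and Tssc4, they included Begain, with a fold enrichment of 4.65, and Inpp5f and Ampd3, each with 4.20. Genes known to set, keep or read imprints had a Mof+/+ peak in 17 of 21 (81.0%), beside the same 24.3% and 44.5%. Among them were Trim28 (4.42), Dnmt1, the maintenance methyltransferase (4.65), Zfp445, a zinc finger protein with a role like that of ZFP57 (3.80), and Dnmt3a (5.97), while Zfp57, Dnmt3l, Dppa3 and Tet1 had none. CpG at the starts of these 21 genes was not compared. Of protein-coding genes with a CpG-rich start, 68.9% had a Mof+/+ peak within 3 kb. Tet3, a methylcytosine oxidase, was the 1 gene of these 21 with a Mof+/- peak, of 4.00, beside the same 1.2% and 1.89%. As a check of the labelled tissue, 9 of 10 adipocyte markers had a Mof+/+ peak by this rule, beside 10 of 10 B cell, 8 of 10 T cell, 4 of 10 fibroblast and progenitor, 1 of 10 macrophage, 3 of 10 endothelial and 1 of 5 mesothelial markers. Within 1 kb of a start, where 20.9% of all genes and 41% of protein-coding genes had one, these counts were 6 for adipocytes, 8 for B cells, 6 for T cells, 4 for fibroblasts and progenitors, and 1 each for macrophage, endothelial and mesothelial markers. The part of these cell types in the peaks at imprinted genes was not tested.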

How the data were processed

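MOF ChIP, H3 ChIP and input libraries were described for both genotypes, and 1 MOF peak list per genotype was analysed; signal tracks and H3 were not analysed here. The authors aligned paired reads to GRCm38 using snakePipes and ran MACS2 (2.1.1.20160309.3, per the submitters' processing notes) with input as control. These values of each peak were taken as deposited: the ratio of summit signal to input (fold enrichment), the −log10 p-value, and the −log10 q-value. The MOF antibody named in the labels differs from those in the study's reporting summary, and which was used for these lists was not settled. Whether replicates were pooled before peak calling is not given in the sources used here. The study describes a step that joined peaks up to 1000 bp apart, but the Mof+/+ list still held closer ones, such as those of Gnas. The name of the Mof+/- list gave its genotype, and the other list, whose name gives none, was taken as Mof+/+.

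Of 19773 Mof+/+ and 731 Mof+/- peaks, the 19753 and 716 on chromosomes 1 to 19, X and Y were used, as deposited. Genes and transcripts were those of GENCODE M21, sequence that of GRCm38.p6. A peak reached a gene when at least 1 bp lay in its body or within 3 kb of any start. Coordinates count from 1. Depth is known only at summits: fragments and background were solved from the ratio together with its Poisson p-value, within 1.39e-05 of −log10 p for member peaks, and checked on simulated data. Shares have 95% Wilson intervals and a share of 0 the limit that 3 counts allow; both cover counting error only, and PCR copies are not independent molecules. The labels give 2 replicates per genotype, and the study's reporting summary describes these as littermates, while the design text of the series counts 3 Mof+/- animals. All 38 members were accounted for, and peaks within 1 kb of a member start, shared peaks and the strongest of each cluster were given in full. The members, lists and rules were chosen with earlier results of these data known. No test was made. Alternatives covered the reach of a gene, the q-value, a common p-value, merging of peaks, the summit, the transcript set, the overlap and the motif window. Python 3.11.15, pandas 2.3.3, SciPy 1.17.1 and pysam 0.24.0 were used.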

Additional observations from a re-analysis of the deposited data

How the results depend on the processing

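The 0 members with a Mof+/- peak and the 0 member peaks overlapping one held under every alternative that was run for them. The number of members with a Mof+/+ peak, 14 as reported, stayed between 10 and 14 except with peaks limited to q-values up to 0.001, when 7 members and 9 peaks were left (18.4% of members, where 18.4% of all genes had such a peak). After scaling of the Mof+/+ summits to the Mof+/- background, a setting chosen after seeing the data, 4 members and 5 peaks were left. The 3 shared peaks became 1 when only start sites within 3 kb or within 1 kb were counted, 1 when both lists were held to the p-value cutoff of the Mof+/- list, and 0 with q-values up to 0.001. Each of these settings counts fewer sites or fewer peaks by construction. The share of member peaks with TGCCGC ran from 23.5% within 75 bp of the summit (7.90% of all Mof+/+ peaks) to 58.8% anywhere in the peak (27.2%). With stricter limits for a CpG-rich start, also added later, 9 of 17 members had a peak within 3 kb, against 70.9% of all such genes. The Wilson interval of 9 of 17 is 31.0 to 73.8%, which includes 70.9%. The median fold enrichment ran from 3.54 to 4.25. Fold enrichment was not recomputed for merged peaks, which have no deposited value.

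No paired analysis was possible because the lists carry no replicate columns, and for the same reason no replicate could be left out. The depth limits what can be said of weak sites: summits of 12 to 23 fragments carry wide counting intervals, and a site without a peak is a site under the caller's threshold, not one without MOF.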
